A study of Mus musculus with 23 samples.

Results

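The genes described here are 4 leucocyte integrin chains of the β2 family (Itgb2, Itgal, Itgam and Itgax), the integrin chain Itga4, and 4 homing molecules that act beside them (Selplg, Amica1, Icam1 and Vcam1). They were taken by symbol from a panel of 770 genes, which holds 9 of the 9, and were compared with each other and with the leucocyte gene Ptprc (CD45). RNA came from primary mammary tumours that grew from E0771 cells, a mouse mammary carcinoma line, in C57BL/6J females injected at 6 to 8 weeks of age by the intra-ductal route. The 5 A tumours came from mice given Anakinra (1 mg/kg daily), a recombinant protein that blocks the receptor of IL-1, and the 6 DZ tumours from mice given doxorubicin at 2 mg/kg weekly and zoledronic acid at 100 µg/kg 24 h later. The 6 ADZ tumours came from mice given all of these drugs and the 6 P tumours from mice given placebo, and all groups shared the cell line, the strain and the graft. The methods state that treatment began on day 9 and that mice were culled on day 23, that the line had been selected for homing to bone, and that 8 mice were randomised to each group. The graft is 1 cell line. Per the study, each A and DZ tumour came from an animal of its own, whereas the sources used here do not tie the ADZ and P tumours to mice, so p-values measure the spread between tumours.

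Circulating leucocytes leave the blood in steps. Selectins catch PSGL-1, the product of Selplg, so that the cell rolls along the vessel wall, after which integrins switch to a binding state and hold the cell to ICAM-1 and VCAM-1 on activated endothelium. The β2 chain pairs with αL as LFA-1, which binds ICAM-1, with αM as Mac-1 of neutrophils, monocytes and macrophages, and with αX as CD11c of dendritic cells and some macrophages. The α4 chain pairs with β1 or β7 and binds VCAM-1. JAML, the product of Amica1, is carried by leucocytes and binds the adhesion molecule CAR on epithelium and endothelium. IL-1 is a textbook inducer of ICAM-1, VCAM-1 and E-selectin on endothelium, which makes these genes of interest where its receptor is blocked.

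In the RefSeq annotation of GRCm38.p6, Itgal (7:127296139-127335137), Itgam (7:128062640-128118491) and Itgax (7:128129526-128150657) lie on chromosome 7, and Itgax starts 11034 bases after the end of Itgam. Itgb2 lies apart from them on chromosome 10, Itga4 on chromosome 2, Vcam1 on chromosome 3 and Selplg on chromosome 5, whereas Icam1 and Amica1 (listed as Jaml) are both on chromosome 9. Promoter windows from RefSeq, which hold 300 bases around a start site, were at hand for 5 of the 9 members. The windows begin 250 bases before the start of the gene given above for Itgam, Itga4 and Icam1, 226 bases before it for Itgax and 220 for Amica1. Those of Itgam, Itgax and Icam1, whose level did not follow the other members, are printed below 5′ to 3′ on the plus strand.
Itgam promoter, chr7:128062390-128062689: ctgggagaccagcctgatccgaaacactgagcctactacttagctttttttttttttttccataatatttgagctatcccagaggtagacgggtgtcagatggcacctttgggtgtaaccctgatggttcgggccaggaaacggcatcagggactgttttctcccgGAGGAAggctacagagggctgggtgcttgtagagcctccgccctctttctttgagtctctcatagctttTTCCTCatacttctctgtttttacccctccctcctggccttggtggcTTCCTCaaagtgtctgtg
Itgax promoter, chr7:128129300-128129599: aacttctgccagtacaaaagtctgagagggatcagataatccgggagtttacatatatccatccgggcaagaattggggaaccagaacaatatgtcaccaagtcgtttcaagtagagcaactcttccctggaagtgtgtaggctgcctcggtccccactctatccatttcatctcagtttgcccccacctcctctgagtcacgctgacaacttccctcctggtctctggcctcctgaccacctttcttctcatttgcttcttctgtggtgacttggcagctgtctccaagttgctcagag
Icam1 promoter, chr9:21015690-21015989: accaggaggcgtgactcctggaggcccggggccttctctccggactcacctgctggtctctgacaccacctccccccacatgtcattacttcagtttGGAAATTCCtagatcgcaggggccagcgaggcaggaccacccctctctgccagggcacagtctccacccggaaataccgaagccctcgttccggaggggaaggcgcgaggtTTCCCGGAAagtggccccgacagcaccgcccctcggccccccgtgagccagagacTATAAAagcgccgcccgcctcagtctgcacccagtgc
Capitals mark matches on either strand to the letters GAGGAA, a core bound by the myeloid factor PU.1, GGAANTTCC, an NF-kB type element, TTCNNNGAA, a STAT type element, and TATAAA, the TATA box. The Itgam window holds GAGGAA 3 times in both strands together, a string that 28.3% of 32851 promoter windows hold, and the Itgax window holds none of the 4 strings. The Icam1 window holds GGAAATTCC, TTCCCGGAA and TATAAA once each, and the 3 strings are found in 0.928%, 8.3% and 13.6% of all windows. The windows of Itga4 and Amica1 hold none of the strings but for 1 TATAAA in that of Amica1. A match in such a window is a description of its letters and not a site in use.

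All 9 members lay above the background of the negative controls in all 23 tumours, and the lowest count behind any value was 71, for Itgax in A3. The panel gave 882537 to 1677295 gene counts per tumour. Levels are given below as normalized counts, which are counts times 1 factor per tumour, and since each gene has a probe of its own, levels of different genes are not set against each other. Markers of tumour epithelium (4 measured of 6 listed) summed to 256 to 681 normalized counts and endothelial markers (8 of 9) to 2722 to 5887, and every list held a gene above background. The placebo tumour P4 stood apart. It had the highest sum of all 23 tumours in 10 of 12 marker lists, all but endothelium and epithelium, among them fibroblast and matrix markers at 60463, against at most 34807 in the others, T cell markers at 2458, against at most 1158, and fat cell markers at 17570, against at most 8637. Its B cell and lymphoid follicle markers (13 of 13 measured) summed to 8480 normalized counts, against at most 551 in the other 22 tumours, and its panel median was 9.09 log2 units, against 7.81 to 8.64 in the others. It was the highest of the 23 tumours for Itgb2, Itgal, Itgam, Itga4, Selplg and Amica1 and the lowest for Icam1, so the differences of the members from P are also given without it.

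Itgb2, the shared chain of the β2 integrins, was measured at 848, 1433, 898, 852 and 2272 normalized counts in A tumours. Its lowest, median and highest levels were 838, 1224 and 1855 in DZ tumours, 694, 1259 and 1408 in ADZ tumours and 908, 1148 and 2661 in P tumours. The groups overlapped almost wholly, and the A and P groups each held 1 tumour (A5 and P4) well above the rest.

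Itgal, the α chain of LFA-1, had 146, 356, 178, 247 and 436 normalized counts in A tumours. Its lowest, median and highest levels were 195, 248 and 475 in DZ, 155, 296 and 494 in ADZ and 190, 275 and 633 in P tumours. P4 was again highest, followed by ADZ1, DZ3, DZ1 and A5, and the groups overlapped.

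Itgam, the α chain of Mac-1, had 457, 797, 660, 797 and 809 normalized counts in A tumours. In DZ tumours it spread over 448, 1077 and 1772 (lowest, median and highest), in ADZ over 404, 878 and 1221 and in P over 591, 729 and 1979. The DZ tumours fell into 3 high ones (DZ1, DZ3 and DZ6) and 3 low ones, the A tumours had no such high tumour, and without P4 the highest P tumour had 844.

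Itgax, the gene of CD11c, ran from 68.1 to 521 normalized counts, the widest range of the 9 members at 7.65-fold. A tumours had 120, 211, 91.7, 93.9 and 521, against a lowest, median and highest of 92.7, 118 and 343 in DZ, 68.1, 149 and 296 in ADZ and 94.6, 124 and 163 in P. A5 lay well above every other tumour, and P4, first in 6 other members, was 16th of 23 here.

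Itga4, the α4 chain, had 108, 158, 109, 151 and 231 normalized counts in A tumours, and its lowest, median and highest levels were 118, 199 and 299 in DZ, 102, 194 and 223 in ADZ and 124, 163 and 629 in P. P4 alone made the P group high, and the group mean was 7.64 log2 units with it and 7.31 without it. Vcam1, the ligand of the α4 integrins, had 153, 288, 211, 157 and 426 in A tumours, 152, 233 and 497 in DZ, 111, 278 and 431 in ADZ and 173, 270 and 442 in P. The 4 ranges of Vcam1 lay over each other, with DZ1 and P4 on top and ADZ3 lowest.

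Selplg, which encodes the selectin ligand PSGL-1, had 624, 1002, 550, 640 and 1333 normalized counts in A tumours, 481, 888 and 1154 in DZ (lowest, median and highest), 480, 870 and 1205 in ADZ and 604, 786 and 1723 in P. P4 and A5 were its highest tumours, as they were for Itgb2. Icam1, the ligand of LFA-1 and Mac-1, had 645, 982, 674, 795 and 783 in A tumours, 577, 765 and 1045 in DZ, 646, 787 and 1227 in ADZ and 557, 781 and 1167 in P. Its medians differed little between groups, and its lowest tumour was P4.

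Amica1 varied least, with a range of 1.997-fold over all tumours. It had 134, 163, 143, 173 and 166 normalized counts in A tumours, against 162, 222 and 260 in DZ (lowest, median and highest), 144, 184 and 217 in ADZ and 160, 202 and 267 in P. All 5 A tumours lay below the DZ median and below the P median, and 5 of 6 DZ and 4 of 6 P tumours lay above the highest A tumour, but the groups overlapped.

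**Figure D1:**
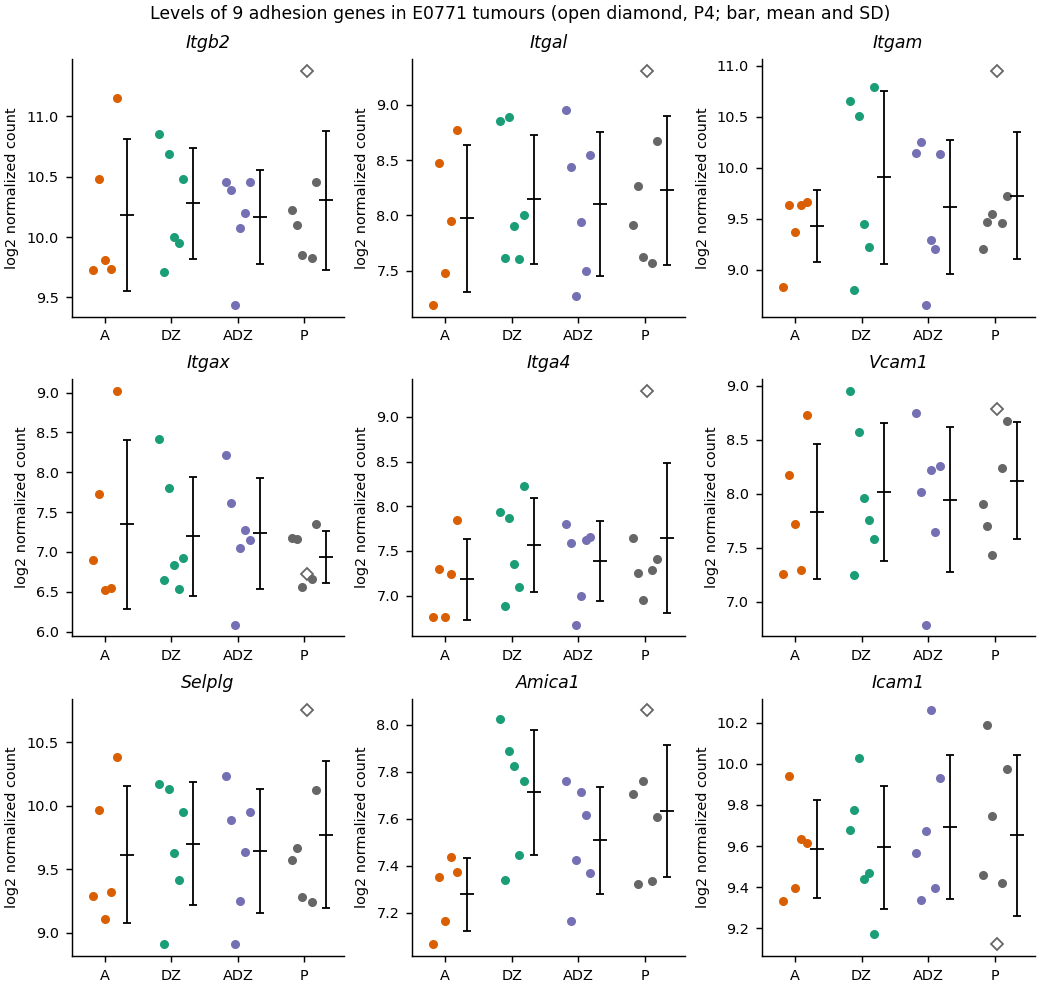
Log2 normalized count of each of the 9 members in every tumour of the A, DZ, ADZ and P groups (1 point per tumour, black bars are mean and SD, the open diamond is P4). The groups overlap for every member, P4 lies above all other tumours for Itgb2, Itgal, Itgam, Itga4, Selplg and Amica1, and the A tumours of Amica1 sit low and close together.

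Whether Anakinra alone changed these genes was read from A against P with limma, adjusted over the 770 genes. None of the 9 members passed an adjusted p of 0.05, as for 0% of the panel (smallest adjusted p 0.999). At an unadjusted p under 0.05 lay 1 member, Amica1, and 9 panel genes (1.17%). Amica1 was 0.782-fold the placebo level, a log2 difference of -0.35 ± 0.16 (SE, unadjusted p = 0.0349, adjusted p = 0.999 by limma). Without P4 the difference was -0.27 (unadjusted p = 0.0945 by limma). With all tumours it was -0.14 when recentred on the panel median, -0.17 after quantile normalization and -0.10 relative to Ptprc. The other differences were -0.46 for Itga4, -0.30 for Itgam, -0.29 for Vcam1, -0.25 for Itgal, -0.16 for Selplg, -0.12 for Itgb2, -0.07 for Icam1 and 0.41 for Itgax, and all of their 95% intervals held 0. Without P4 they were -0.13 for Itga4, -0.05 for Itgam, -0.15 for Vcam1, -0.04 for Itgal, 0.04 for Selplg, 0.09 for Itgb2, -0.17 for Icam1 and 0.37 for Itgax. Below placebo thus lay 8 of 9 members, with a median of -0.25, against 66.6% of the panel genes and a panel median of -0.09. With tumours recentred on the panel median, which shifts the panel median of this comparison to 0.13, 5 of 9 lay below placebo. Without P4 the count was 6 of 9 and the member median -0.05, against 43.0% and 0.03 for the panel. The value of Itgax rested on A5, and it was -0.01 without that tumour.

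DZ against P asks what doxorubicin with zoledronic acid did. None of the 9 members passed the adjusted threshold (0% of the panel) or an unadjusted p of 0.05 (12 panel genes, 1.56%). The differences ran from -0.11 for Vcam1 to 0.26 for Itgax with a median of -0.06, against a panel median of 0.04, and Amica1 differed by 0.08 and Itgam by 0.18. Without P4 these were 0.02 for Vcam1, 0.22 for Itgax, 0.17 for Amica1 and 0.42 for Itgam. Below placebo lay 6 of 9 members, against 42.5% of the panel, but without P4 only Icam1 did, against 23.2%. For ADZ against P, again no member was called (0% of the panel) and none had an unadjusted p under 0.05 (11 panel genes, 1.43%). The differences ran from -0.25 for Itga4 to 0.30 for Itgax, with Amica1 at -0.12, and 7 of 9 members lay below placebo, against 60.6% of the panel. After recentring on the panel median 1 of 9 did, but recentring shifts the panel median of this comparison from -0.05 to 0.13. On the deposited scale without P4, 3 of 9 lay below placebo, against 38.4%. The differences were then 0.08 for Itga4, 0.25 for Itgax and -0.04 for Amica1.

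The A and DZ tumours, the pair that the study itself compared, were fitted on their own 11 tumours. No member and 0% of the panel passed the adjusted threshold (smallest adjusted p 0.347), and at an unadjusted p under 0.05 lay 1 member and 33 panel genes (4.29%). That member was again Amica1, at 0.740-fold the DZ level, a log2 difference of -0.43 ± 0.16 (SE, unadjusted p = 0.0185, adjusted p = 0.923 by limma). Leaving out each tumour in turn kept it between -0.51 and -0.37, with unadjusted p from 0.00765 to 0.0503 by limma. The size depended on the scale, as it was -0.19 with tumours recentred on the panel median, -0.29 after quantile normalization and -0.09 relative to Ptprc. Itgam differed by -0.48, Itga4 by -0.38, Vcam1 by -0.18, Itgal by -0.17, Itgb2 by -0.10, Selplg by -0.09, Icam1 by -0.01 and Itgax by 0.15, none beyond its interval. Below DZ lay 8 of 9 members, against 74.7% of the panel, with a median of -0.17 for the members and -0.13 for the panel. After recentring on the panel median 3 of 9 did, but recentring shifts the panel median of this comparison to 0.11.

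Adding Anakinra to doxorubicin and zoledronic acid was read from ADZ against DZ. No member was called (0% of the panel) or had an unadjusted p under 0.05 (8 panel genes, 1.04%), and differences ran from -0.29 for Itgam to 0.10 for Icam1, with Amica1 at -0.20. All 6 ADZ tumours lay below the DZ median of Amica1. For ADZ against A, where no member was called either (0% of the panel, 0.130% at an unadjusted p under 0.05), differences ran from -0.11 for Itgax to 0.23 for Amica1. The interaction asks whether Anakinra acted alike with and without doxorubicin and zoledronic acid. It called no member (0% of the panel, 0.260% at an unadjusted p under 0.05). Its value was 0.15 for Amica1 (95% interval -0.30 to 0.60) and -0.37 for Itgax (-1.59 to 0.85), or 0.06 and -0.33 without P4. For 4 of the 9 members the 95% interval of the interaction lay inside 2-fold either way, against 48.8% of the panel. These comparisons share tumours, A, DZ and ADZ against P share the placebo tumours, and their directions are not independent of each other.

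A missed threshold does not show equal levels, so the intervals were read against the 2-fold difference that the study required. For Icam1 and Amica1 the 95% interval lay inside 2-fold either way in all 6 comparisons, and Icam1 was between 0.713 and 1.28 times the placebo level in A tumours. For A against P, Itgb2 and Selplg were also inside, and 68.1% of the panel genes were. Without P4 all members but Itgax were, and no panel share was taken for that fit. For ADZ against A all 9 members were inside (74.4% of the panel). The interval of Itgax reached outside in A, DZ and ADZ against P and in A against DZ, as far as 2.45-fold in A against P.

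**Figure D2:**
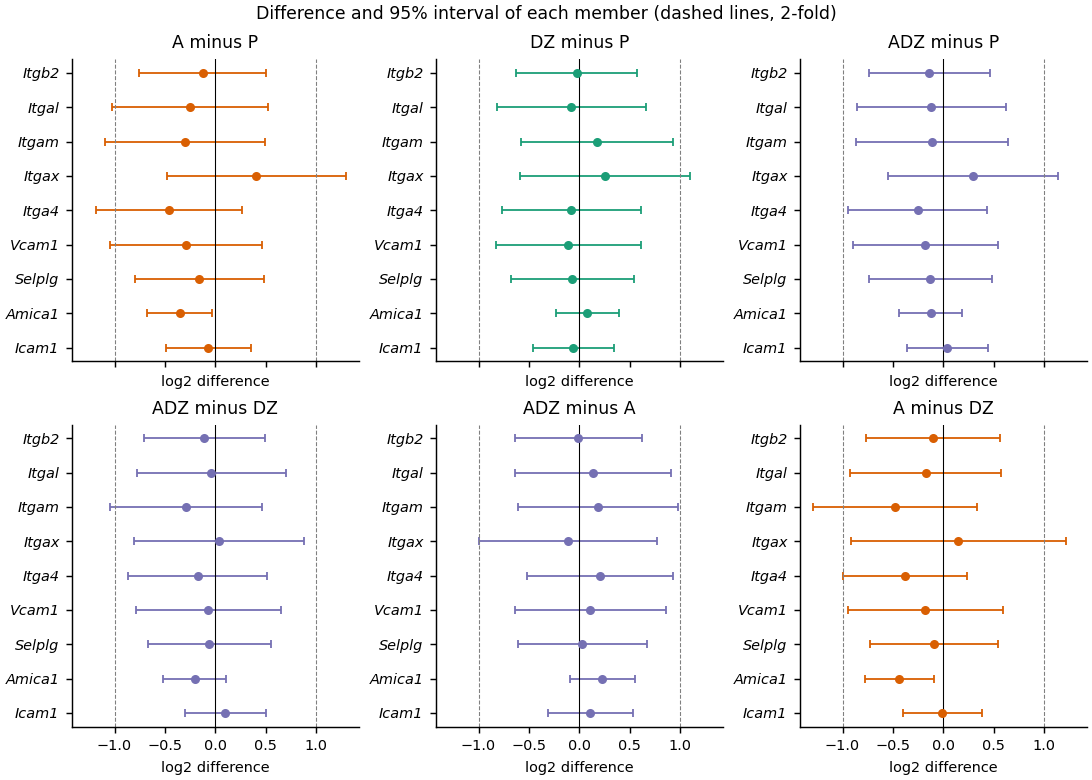
Log2 difference of each member with its 95% interval from limma, in 1 panel for each of the 6 comparisons (dashed lines mark a 2-fold difference). Only the intervals of Amica1 in A minus P and A minus DZ leave out 0, and neither passed adjustment over the panel.

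The members varied together from tumour to tumour. Over the 23 tumours and on the deposited scale, the log2 levels of 8 members rose with Ptprc, of which Amica1 turned sign under other scalings (Pearson's r and Spearman's rho, two-sided permutation p adjusted over the 9 members). The relation was r = 0.96 for Selplg (rho = 0.94) and 0.95 for Itgb2 (rho = 0.93), which ranked 2nd and 3rd of 769 genes in their r with Ptprc. It was 0.88 for Itgal (rho = 0.82), 0.87 for Itga4 (rho = 0.89) and 0.82 for Vcam1 (rho = 0.77), and for these 5 genes the adjusted permutation p of r was 1.80e-05, with unadjusted p at the smallest that 100000 permutations can give (1e-05). Itgam followed at 0.74 (rho = 0.69, adjusted p = 1.20e-04), Itgax at 0.70 (rho = 0.77, adjusted p = 2.19e-04) and Amica1 at 0.57 (rho = 0.51, adjusted p = 0.00552). The adjusted p of rho lay at or below 0.0146 for all 8. Icam1 stood apart with r = -0.08 (rho = -0.02, adjusted p = 0.709). An r over 0.7 was found for 6 of 9 members and for 16.3% of the other 769 genes, whose median r was 0.37.

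Leaving out A5 and P4, the 2 tumours farthest from the median of Ptprc, gave r = 0.94 for Selplg, 0.93 for Itgb2, 0.87 for Itgax, 0.85 for Itga4, 0.84 for Itgal, 0.79 for Vcam1, 0.73 for Itgam and 0.56 for Amica1. Icam1 then had r = 0.14 (adjusted permutation p = 0.558). With group means removed, r was 0.97 for Selplg, 0.96 for Itgb2, 0.75 for Itgax and 0.57 for Amica1. Within the groups of 6, Selplg gave r = 0.99 in DZ, 0.94 in ADZ and 0.98 in P, and Itgb2 gave 0.96, 0.87 and 0.97 in the same order (exact permutation p adjusted over 27 values between 0.0188 and 0.0338). Amica1 was less even, at r = 0.96 in DZ (adjusted exact permutation p = 0.0188), 0.30 in ADZ (0.623) and 0.58 in P (0.298). Itgax had r = 0.23 in P, where P4 combined the highest Ptprc with a low Itgax, against 0.83 in DZ and 0.96 in ADZ.

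The panel median of a tumour moved with the same genes, with r of 0.92 for Itga4, 0.87 for Itgb2 and 0.72 for Amica1 (rho = 0.86, 0.91 and 0.61, adjusted permutation p of r 4.50e-05, 4.50e-05 and 1.20e-04). Recentred on it, r with Ptprc was 0.87 for Selplg, 0.85 for Itgb2 and 0.73 for Itgal, but 0.42 for Itgam (adjusted permutation p = 0.0528) and, with the sign turned, -0.36 for Amica1 (0.0934). Quantile normalization gave 0.91 for Itgb2 and Selplg, 0.27 for Itgax (0.212) and -0.46 for Amica1 (0.0332), so that no direction can be given for Amica1 against Ptprc. Icam1 was negative on both scales, at -0.44 (0.0403) and -0.55 (0.00793). The factor of a tumour, which is high where the reference genes gave few counts, also went with Itgam (r = 0.72, rho = 0.66, adjusted permutation p = 2.31e-04) and Amica1 (r = 0.57, rho = 0.58, adjusted permutation p = 0.0108). It went less closely with Itga4 (r = 0.47, rho = 0.56, adjusted permutation p = 0.0321) and Itgal (r = 0.44, adjusted permutation p = 0.0545, rho = 0.49, adjusted permutation p = 0.0291). The part of the factor in these levels was not tested. In bulk RNA, more leucocytes and more RNA of these genes per leucocyte cannot be told apart.

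**Figure D3:**
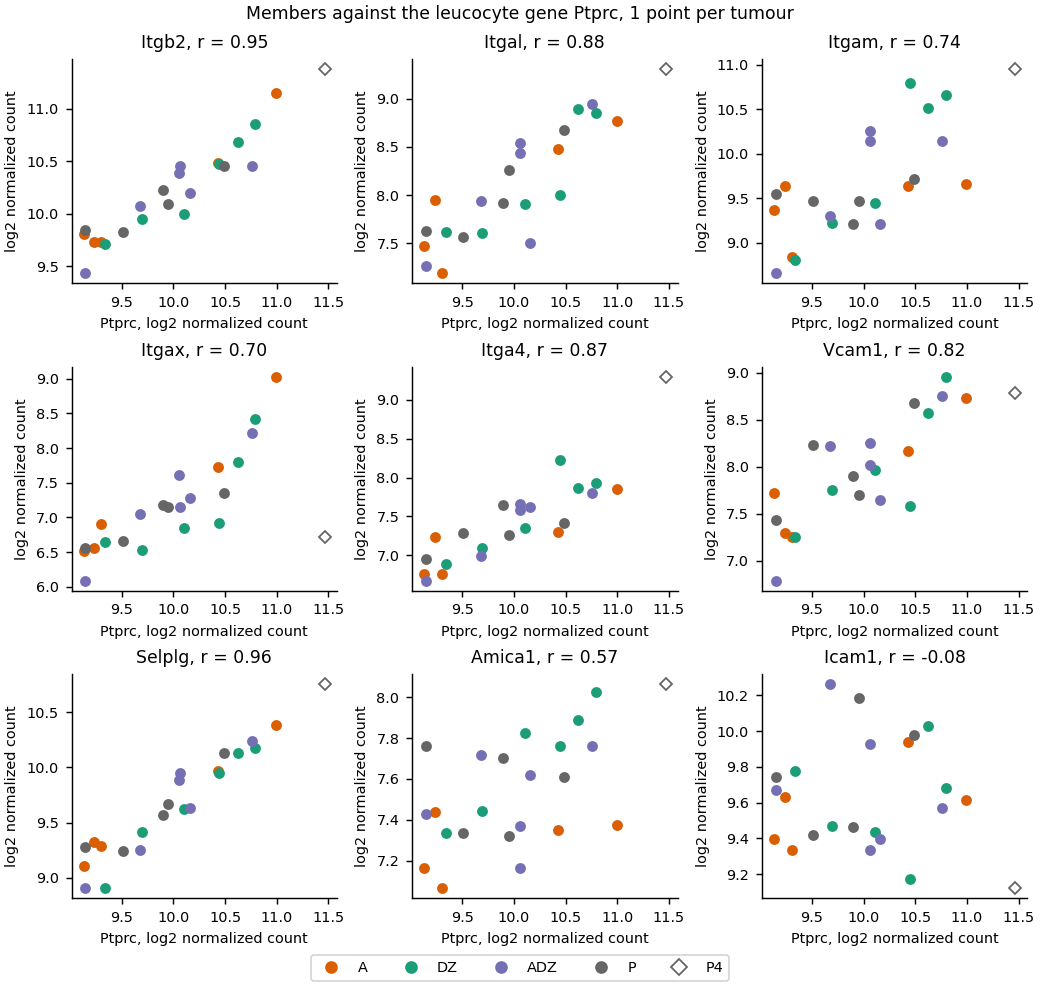
Log2 normalized count of each member against that of Ptprc, 1 point per tumour, coloured by group, with the open diamond for P4. Selplg and Itgb2 lie close to a line, Itgax does so apart from P4, and Icam1 shows no slope.

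Set against Ptprc within each tumour, the spread of Selplg over 23 tumours was 0.23 log2 units (SD), against 0.49 for its level, and that of Itgb2 0.25, against 0.48. Itgal gave 0.31 against 0.60 and Itga4 0.32 against 0.58. For Amica1 and Icam1 the spread was larger relative to Ptprc, at 0.55 against 0.28 and at 0.75 against 0.31. On this scale no member had an unadjusted p under 0.05 in any comparison by limma, and only 0 to 2 of 769 panel genes did in each. The nearest member was Itgax in A against P at 0.67 ± 0.34 (SE, unadjusted p = 0.0582, adjusted p = 0.996 by limma), which was 0.35 ± 0.27 without P4 (unadjusted p = 0.212 by limma).

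Between members, Itgb2 and Selplg went together most closely (r = 0.95), followed by Itgal and Selplg (0.91) and Itgal and Itgb2 (0.89). Itgal and Vcam1 reached 0.85, whereas Itga4 and Vcam1, a receptor chain and its ligand, had 0.65 and Itgal and Icam1, another such pair, 0.17. Itgam and Itgax, which lie close together on chromosome 7 with 1 annotated gene (Gm45700) between them, had 0.43 (0.55 without P4), against 0.80 for Itgam and Itgal. Itgax and Itgb2 had 0.71, and 0.92 without P4. These values describe 23 tumours that share the panel's scaling.

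**Figure D4:**
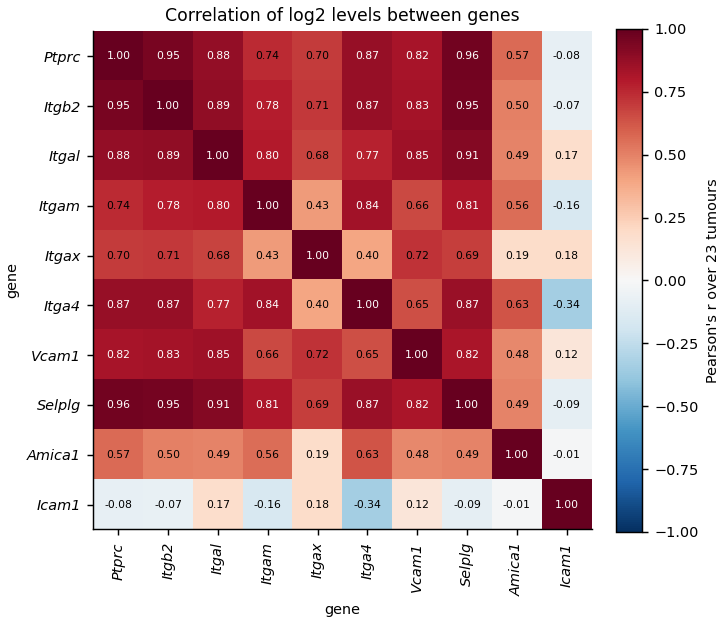
Pearson's r between the log2 levels of Ptprc and the 9 members over 23 tumours (colour and number in each square). Itgb2, Itgal, Selplg and Ptprc form a block with r from 0.88 to 0.96, and the row of Icam1 runs from -0.34 to 0.18.

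Of all panel genes, Itgal was nearest by r over the 23 tumours to Selplg (0.91), Tnfrsf14 (0.91) and Cd74 (0.90), the invariant chain of MHC class II. Itgam was nearest to the protease Ctsh (0.91), Il21r (0.91) and Csf2rb (0.91), and Itgax to Cxcl16 (0.90), Cybb (0.88) of the phagocyte oxidase and the class II gene H2-Ab1 (0.87). Itgb2 had Selplg, Ptprc and Cd81 (0.92) nearest, Selplg had Ptprc, Tlr8 (0.96) and Itgb2, and Itga4 had Csf1r (0.96), the receptor of macrophage growth factor, Tlr1 (0.95) and App (0.94). Vcam1 was nearest to Cx3cr1 (0.87), Spn (0.86) and Itgal. Amica1 had looser neighbours in Il2ra (0.75), Ccr7 (0.75) and Il3ra (0.75). Without P4 these were 0.71, 0.69 and 0.69, and the panel median of a tumour alone went with Amica1 at 0.72. Icam1 was nearest to the cytokine Il24 (0.77), the urokinase gene Plau (0.73) and the nectin Pvrl2 (0.73), none of which was among the 3 nearest of another member.

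Lists of cell type markers were set against the members in 108 correlations, with permutation p adjusted over all of them. T cell markers (8 of 8 measured) went with Itgal at r = 0.88 (rho = 0.87, adjusted p = 6.35e-05, and 0.86 without the 2 tumours farthest in T cell markers). Macrophage and monocyte markers (8 of 10) went with Itgb2 at 0.92 (rho = 0.91, adjusted permutation p = 6.35e-05, and 0.86 without 2 tumours) and with Itgam at 0.81 (rho = 0.82, adjusted permutation p = 9.82e-05, and 0.71 without 2 tumours). Neutrophil markers (4 of 7) did not go with Itgam (r = 0.17, rho = 0.06, adjusted permutation p = 0.528), and went against Itgax at r = -0.52 (rho = -0.58, adjusted permutation p = 0.0222, and -0.61 without 2 tumours). Without the same 2 tumours r was also negative for Itgb2 (-0.54, against -0.11 with all 23) and Selplg (-0.51, against -0.12). It was then -0.44 for Vcam1, -0.42 for Itgal, -0.42 for Itga4 and -0.16 for Itgam, but 0.01 for Amica1 and 0.06 for Icam1. Vcam1 went with T cell markers at 0.76 (rho = 0.76, adjusted permutation p = 9.82e-05, and 0.77 without 2 tumours) but with endothelial markers at 0.26 (rho = 0.23, adjusted permutation p = 0.290). Icam1 had r = 0.32 with endothelial markers (rho = 0.36, adjusted permutation p = 0.193, and 0.15 without 2 tumours) and -0.27 with markers of epithelium and tumour cells (rho = -0.23, adjusted permutation p = 0.272). Its r was -0.44 with B cell and lymphoid follicle markers (rho = -0.34, adjusted permutation p of r 0.0450, and -0.15 without 2 tumours). With fibroblast and matrix markers it was -0.35 (rho = -0.25, adjusted permutation p = 0.151). Recentring on the panel median and quantile normalization, chosen after seeing the data, moved these values. They gave 0.68 and 0.82 for Itgb2 and 0.34 and 0.68 for Itgam with macrophage and monocyte markers, 0.75 and 0.78 for Itgal and 0.56 and 0.51 for Vcam1 with T cell markers, and -0.64 and -0.64 for Itgax and -0.10 and 0.13 for Itgam with neutrophil markers. With endothelial markers they gave 0.64 and 0.49 for Icam1 and -0.08 and 0.02 for Vcam1, and with markers of epithelium and tumour cells 0.01 and 0.21 for Icam1, which turned its sign. For Icam1 they also gave -0.80 and -0.77 with B cell and lymphoid follicle markers and -0.54 and -0.70 with fibroblast and matrix markers. The pairs quoted are not particular to 1 list. T cell markers also went with Itgb2 (r = 0.86) and Itgam (0.73), and macrophage and monocyte markers with Itgal (0.83) and Vcam1 (0.74). NK cell markers (5 of 5) went with Itgam at 0.76. After recentring Itgam had 0.49 with NK cell and 0.41 with T cell markers, above its 0.34 with macrophage and monocyte markers. Quantile normalization gave the other order, at 0.17 with NK cell and 0.29 with T cell markers, below its 0.68 with macrophage and monocyte markers. Several lists rise and fall together across these tumours, and their separate parts were not tested.

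Each α chain was also followed as the log2 ratio of its level to that of Itgb2 in each tumour. The ratio is not a share of the β2 family, since each gene has a probe of its own, and it was compared only between tumours. Itgal over Itgb2 averaged -2.21 ± 0.30 in A (SD, n = 5), -2.13 ± 0.24 in DZ, -2.06 ± 0.39 in ADZ and -2.08 ± 0.23 in P (n = 6 each). Itgam over Itgb2 averaged -0.75 ± 0.52 in A, -0.37 ± 0.44 in DZ, -0.55 ± 0.34 in ADZ and -0.58 ± 0.27 in P. Itgax over Itgb2 averaged -2.84 ± 0.46 in A, -3.08 ± 0.40 in DZ, -2.94 ± 0.40 in ADZ and -3.37 ± 0.64 in P. None of the 18 comparisons passed, with adjusted exact permutation p from 0.795 to 0.931 and the smallest unadjusted exact p 0.154, for Itgax in A against P at 0.53. The next were Itgax in ADZ against P at 0.43 (exact permutation p = 0.206) and Itgam in A against DZ at -0.38 (0.227). P4 had the lowest ratio of Itgax to Itgb2 at -4.65, and the next lowest P tumour had -3.29. Without P4 the ratio of Itgax differed by 0.28 in A against P and by 0.18 in ADZ against P (adjusted exact permutation p = 0.847 for both).

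**Figure D5:**
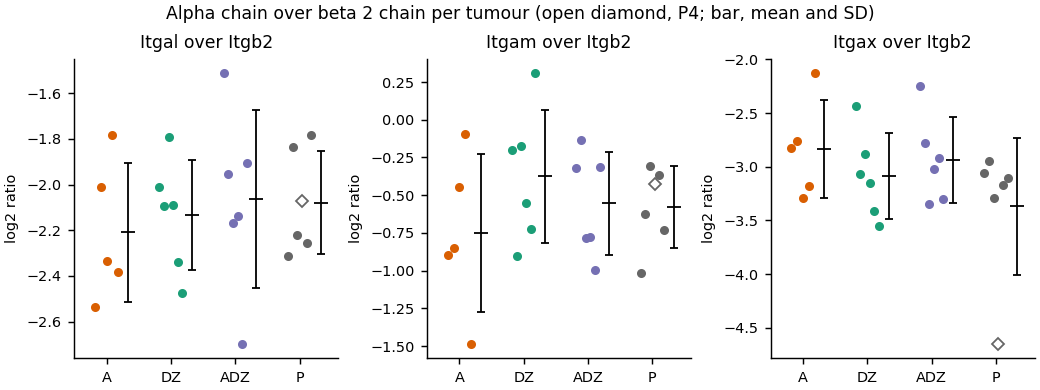
Log2 ratio of Itgal, Itgam and Itgax to Itgb2 in each tumour of the A, DZ, ADZ and P groups (black bars are mean and SD, the open diamond is P4). The groups overlap in all 3 panels, and P4 lies far below the others for Itgax.

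Of 41 further adhesion and homing genes listed, 30 were on the panel, and none passed an adjusted p of 0.05 in any comparison. Against DZ, A tumours were lower for 28 of the 30, with a median of -0.34, against 74.7% of the panel and -0.13. This count is given on the deposited scale only, and recentring shifts the panel median of this comparison to 0.11. At an unadjusted p under 0.05 by limma lay 7 of the 30, against 4.29% of the panel. These included Cd34, Jam3, Itga2b, Cxcr4, Ccr7 and Ccl21a, each lower in A. Itga2b, the platelet αIIb chain, differed by -0.76 ± 0.18 (SE, adjusted p = 0.347 by limma) and Jam3 by -0.82 ± 0.22 (SE, adjusted p = 0.511 by limma). The study, by its own test of A against DZ, lists Itga2b, Jam3, Cxcr4 and Ccr7 among the regulated genes in its enriched terms.

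Itgb4, the β chain that epithelial cells carry with α6, was higher against P by 0.49 in A, by 0.45 in DZ and by 0.39 in ADZ tumours (unadjusted p = 0.0210, 0.0234 and 0.0494, adjusted p at or above 0.999 by limma), 3 comparisons that share the placebo tumours. Without P4 these were 0.49, 0.46 and 0.39 (unadjusted p = 0.0268, 0.0302 and 0.0598 by limma). Of the direct partners, Itgb1 averaged 14.00 log2 units in A, 14.25 in DZ, 14.04 in ADZ and 13.88 in P tumours (13.94 without P4). Sele, the endothelial selectin that IL-1 can induce, differed by 0.36 in A against P (95% interval -0.57 to 1.29) and by 0.00045 without P4, which had the lowest Sele level of the P tumours at 65.2 normalized counts. Icam2 and Pecam1, both carried by resting endothelium, differed by -0.13 and -0.09 in A against P, or -0.20 and -0.02 without P4, with 95% intervals that held 0.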

How the data were processed

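RNA (150 ng at 50 ng/µl) of 23 primary tumours was counted on the nCounter panCancer mouse immune panel. The authors used nSolver (version 4.0) with its Advanced Analysis module (version 2.0), and the deposited log2 values are counts scaled by a single factor for each tumour (0.759 to 1.57), which gives the 20 reference genes a mean of 11.4 log2 units in every tumour. The sources used here do not state whether background was subtracted. Counts were recovered by dividing out the factor. Background was the mean of 8 negative controls plus 2 SD, times the factor (16.6 to 41.3 normalized counts), and no filter on low values was applied. Columns were mapped to groups by their labels, and no batch is given. Pairs of tumours correlated at 0.850 to 0.992 and no columns were equal. Genes were compared with limma 3.58.1 in R 4.3.3 (eBayes after lmFit), with two-sided p-values adjusted by Benjamini-Hochberg across 770 genes. A minus DZ was fitted on 11 tumours, all other comparisons and the interaction on 23, and the fit was tested on simulated data. Ratios were compared by exact two-sided permutation and correlations by 100000 permutations (numpy 2.4.6, scipy 1.17.1). Sequences and positions are from RefSeq (GRCm38.p6), where 8 members matched by symbol and 1 by synonym. Counting intervals were not used, and depth limits precision through counts of 71 or more per member and tumour. Named were the 9 members, Ptprc, the 3 further adhesion genes with the smallest p in a comparison, the measured binding partners, and the 3 genes nearest to each member, and genes of counts described beside them. Of the further adhesion genes so chosen, 1 is not reported here. The members, lists and tests were chosen with earlier results of these data known. Alternatives were other scalings, filters, fits and samples.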

Additional observations from a re-analysis of the deposited data

Results flagged for a closer look

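Of 48 sets of group values examined over all groups, 3 were flagged, by a rule that flags about 5% of groups by chance. All 3 were sets of the P group in which P4 lay far from the other 5 placebo tumours. Only the sets of the P group hold P4, so the share of its own sets that was flagged is larger than 3 of 48. Its Itgam level was 10.95 log2 units, with 9.72 in the next P tumour, and the gap took up 0.706 of the range of the group. Its Itga4 level was 9.30, with 7.64 in the next P tumour, a gap of 0.705 of the range. Its log2 ratio of Itgax to Itgb2 was -4.65, with -3.29 in the next P tumour, a gap of 0.798 of the range. P4 also had the highest sum of all 23 tumours in 10 of 12 marker lists (all but endothelium and epithelium), and the part of these cells in its levels was not tested.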

How the results depend on the processing

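No member and no panel gene passed an adjusted p of 0.05 in any comparison under any alternative run, and neither did any of the 18 ratio comparisons. Replicate numbers are shared between groups, but like-numbered tumours did not move together in every pair (r over 0.1 in 4 of 5 pairs of A and P, 1 of 6 of DZ and P, 1 of 6 of ADZ and P, 3 of 6 of ADZ and DZ, 2 of 5 of ADZ and A and 1 of 5 of A and DZ). With the replicate number as a block, 0 members and 0 panel genes were called in each comparison, and Amica1 differed by -0.36 in A minus P and by -0.43 in A minus DZ. Over the differences of all members, 58 of 558 values from other settings and 117 of 828 values with 1 tumour left out had the opposite sign.

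Recentring on the panel median turned the sign of 3 of 9 members in A minus P, 6 in ADZ minus P, 5 in ADZ minus DZ, 1 in ADZ minus A, 5 in A minus DZ and 1 in the interaction. Quantile normalization turned 1 in A minus P, 2 in ADZ minus P, 4 in ADZ minus DZ, 1 in ADZ minus A and 5 in A minus DZ, and scaling to Ptprc turned 4 in A minus P, 1 in DZ minus P, 5 in ADZ minus DZ, 4 in ADZ minus A, 5 in A minus DZ and 2 in the interaction. Without P4, 2 turned in A minus P, 5 in DZ minus P, 6 in ADZ minus P and 5 in the interaction.

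Among the differences that are given one by one above, recentring turned those in A minus P of Itgb2 (0.093), Selplg (0.057) and Icam1 (0.15), in ADZ minus P that of Amica1 (0.057), and in A minus DZ those of Itgal (0.067), Itgb2 (0.14), Selplg (0.15), Icam1 (0.23) and Vcam1 (0.063). Quantile normalization turned Icam1 in A minus P (0.10) and Itgal (0.025), Itgb2 (0.016), Selplg (0.066), Icam1 (0.15) and Vcam1 (0.019) in A minus DZ. Relative to Ptprc, A minus P turned for Itgal (0.0055), Itgb2 (0.13), Selplg (0.10) and Icam1 (0.19), DZ minus P for Amica1 (-0.0088), and A minus DZ for Itgal (0.17), Itgb2 (0.25), Selplg (0.26), Icam1 (0.34) and Vcam1 (0.17). The correlation of Amica1 with Ptprc turned under recentring (-0.36) and quantile normalization (-0.46), and that of Icam1 without A5 and P4 (0.14) and without P4 alone (0.11).

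With 1 tumour left out, 4 members turned in A minus P, 7 in ADZ minus P and 6 in each other comparison and the interaction. Of those given one by one, the differences that turned ranged in A minus P from -0.17 to 0.039 for Icam1, -0.37 to 0.090 for Itgb2, -0.35 to 0.036 for Selplg and -0.012 to 0.62 for Itgax. In A minus DZ they ranged from -0.37 to 0.022 for Itgal, -0.34 to 0.017 for Itgb2, -0.10 to 0.076 for Icam1, -0.28 to 0.038 for Selplg, -0.27 to 0.40 for Itgax and -0.40 to 0.011 for Vcam1. In the other comparisons those given ranged from -0.30 to 0.044 for Vcam1 in DZ minus P, -0.39 to 0.079 for Itga4 in ADZ minus P, -0.014 to 0.19 for Icam1 in ADZ minus DZ, -0.32 to 0.31 for Itgax in ADZ minus A and -0.58 to 0.050 for Itgax in the interaction. The cause of these turns was not tested.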
